A study of Mus musculus with 4 samples.

Results

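The accessibility of *Ogdh* and of 8 further genes of the tricarboxylic acid (TCA) cycle was followed in inguinal white adipose tissue (iWAT) during beiging. The 9 genes (*Ogdh*, *Cs*, *Idh2*, *Idh3a*, *Suclg1*, *Sdha*, *Sdhb*, *Fh1* and *Mdh2*) are 9 of the 17196 protein-coding genes that carry at least 1 peak, and together they hold 60 of the 189598 peaks of the data set. A peak was given to a gene when it overlapped the gene body or the 2000 bases before its start. *Ogdh* was selected on its own accessibility in these adipocytes, already known to be higher in the treated than in the untreated mice, so its values against day 0 are a description, with no test, and support nothing. The other 8 genes were chosen as neighbouring steps of the same cycle, also with earlier results of these data known. Their tests against day0RT may therefore not be free of selection.

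Single-nucleus ATAC-seq, in which Tn5 transposase cuts open chromatin and barcodes assign each read to a nucleus, was performed on iWAT of 21 male C57BL/6J mice, 8 weeks old, with 3 mice in each of 7 groups. The day0RT mice were kept at room temperature (22 °C), the day1C, day3C and day7C mice were held in the cold for 1, 3 or 7 days, and the day1CL, day3CL and day7CL mice were given an agonist of the β3-adrenergic receptor, CL-316,243 (here CL), at 1 mg/kg for as long at room temperature. The labels give the cold as 6.5 °C. No mouse carried an engineered allele, and whole tissue was used, so the nuclei of 12 annotated cell types were sequenced together. White adipocytes (5935 nuclei) and beige adipocytes (1069 nuclei) were summed per mouse for the comparisons between groups, as 7004 of 32552 nuclei.

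The TCA cycle oxidises acetyl groups in the mitochondrial matrix and passes the electrons to the respiratory chain. Citrate synthase (*Cs*) condenses acetyl-CoA with oxaloacetate, isocitrate dehydrogenases (*Idh3a* of the NAD-linked enzyme, *Idh2* of the NADP-linked enzyme) form 2-oxoglutarate, and the 2-oxoglutarate dehydrogenase complex, of which *Ogdh* encodes the first component, turns it into succinyl-CoA. Succinyl-CoA ligase (*Suclg1*), succinate dehydrogenase (*Sdha*, *Sdhb*), fumarase (*Fh1*) and malate dehydrogenase (*Mdh2*) complete the turn. Beige adipocytes are mitochondria-rich fat cells that dissipate the proton gradient through UCP1, and the cycle supplies the reducing equivalents for it.

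Every entry of the deposited matrix is 0 or 1, so a count is 1 nucleus with reads in 1 peak. The level of a gene is given as CPM, its counts-per-million share of all counts on genes of the library, and an adipocyte library is the sum over the adipocyte nuclei of 1 mouse. These libraries held 29 to 933 nuclei and 48868 to 3354348 counts on genes, and the shallowest was the first day1CL mouse. The median count per adipocyte nucleus was 1330.5 to 2697 in the day0RT mice and 1932 to 6685.5 in the day7CL mice, and beige nuclei made up 7.69% to 12.2% of the adipocyte nuclei in day0RT, 26.1% to 32.5% in day7C and 14.5% to 23.5% in day7CL. Of 28031 distinct barcodes, 4218 occurred in more than 1 mouse. Those found in 2 mice always joined mice of the same treatment and replicate number on different days, and had the same cell type in 21.2% of pairs, against 20.7% for the overall shares of the cell types. The adipocyte marker list (8 genes) was highest in white and beige adipocytes and the beige list (5 genes, *Ucp1* among them) highest in beige adipocytes (1058 CPM against 637 CPM in white). The cluster annotated as vascular smooth muscle cells (VSMCs) went against its name, since the skeletal muscle list summed to 1246 CPM in it and the smooth muscle list to 112 CPM, below the 407 CPM of the second progenitor cluster (APC2). In a sum over cells, fewer cells of a type and lower accessibility per cell cannot be told apart.

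*Ogdh* (ENSMUSG00000020456) lies on the plus strand of chromosome 11 from 6291633 to 6356642 (mm10) and carries 10 peaks, all inside the gene. No peak lay over its start: the nearest was 7866 bases downstream, whereas 14749 of 21951 protein-coding genes (67.2%) had a peak within 2000 bases of the start. *Fh1* was the only other member with no peak over its start (nearest 5304 bases away). Peak names below are the coordinates of the authors' file, and printed sequences are up to 300 bases from the middle of a peak, counted from 1 and read from GRCm38. Coding bases are in capitals. The first 3 are the peaks highest in beige adipocytes, the next is the peak that led in macrophages, and the last is the single *Ogdh* peak that was not higher after treatment.
Ogdh +63.1 kb, chr11:6354611-6354910, + strand: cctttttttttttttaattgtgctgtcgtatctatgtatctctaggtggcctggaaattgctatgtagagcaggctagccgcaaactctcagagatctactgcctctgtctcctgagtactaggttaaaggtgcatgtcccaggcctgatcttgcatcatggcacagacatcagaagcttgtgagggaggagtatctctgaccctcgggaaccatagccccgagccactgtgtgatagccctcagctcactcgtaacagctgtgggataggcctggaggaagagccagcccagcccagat
Ogdh +63.7 kb, chr11:6355165-6355464, + strand: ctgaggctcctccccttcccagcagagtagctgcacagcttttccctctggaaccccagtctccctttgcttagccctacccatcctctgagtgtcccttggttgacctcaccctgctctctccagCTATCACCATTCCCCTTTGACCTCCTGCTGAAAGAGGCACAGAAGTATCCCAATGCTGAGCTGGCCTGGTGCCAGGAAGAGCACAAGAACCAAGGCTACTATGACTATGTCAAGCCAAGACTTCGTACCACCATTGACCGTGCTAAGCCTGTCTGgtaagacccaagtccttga
Ogdh +25.1 kb, chr11:6316629-6316928, + strand: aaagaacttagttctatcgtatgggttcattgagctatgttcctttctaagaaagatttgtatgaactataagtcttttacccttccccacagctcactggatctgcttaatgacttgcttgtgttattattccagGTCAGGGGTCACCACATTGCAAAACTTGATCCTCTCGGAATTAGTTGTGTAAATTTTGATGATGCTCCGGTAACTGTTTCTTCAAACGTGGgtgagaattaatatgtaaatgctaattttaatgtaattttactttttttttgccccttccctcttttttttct
Ogdh +8.0 kb, chr11:6299533-6299832, + strand: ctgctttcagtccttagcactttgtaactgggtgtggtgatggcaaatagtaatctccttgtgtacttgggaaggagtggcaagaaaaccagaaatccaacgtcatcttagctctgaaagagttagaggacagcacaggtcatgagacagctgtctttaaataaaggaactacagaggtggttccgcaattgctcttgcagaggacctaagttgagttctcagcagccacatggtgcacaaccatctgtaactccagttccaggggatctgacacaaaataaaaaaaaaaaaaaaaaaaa
Ogdh +38.8 kb, chr11:6330325-6330532, + strand: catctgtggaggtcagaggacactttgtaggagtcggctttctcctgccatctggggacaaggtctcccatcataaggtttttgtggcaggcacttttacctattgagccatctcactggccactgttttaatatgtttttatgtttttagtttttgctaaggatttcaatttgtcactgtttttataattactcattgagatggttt

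The chromatin of *Ogdh* was more accessible in adipocytes of every treated mouse than in those of any day0RT mouse. The day0RT mice had 16.4, 17.6 and 9.24 CPM, from 8, 5 and 8 counts. In the cold, the values were 30.2, 34.7 and 44.6 CPM on day 1, 34.9, 35.0 and 31.3 CPM on day 3 and 42.8, 58.4 and 41.3 CPM on day 7. With CL they were 40.9, 22.5 and 41.4 CPM on day 1, 26.2, 31.2 and 26.9 CPM on day 3 and 50.0, 39.5 and 42.6 CPM on day 7. The lowest treated mouse was the second day1CL mouse, at 22.5 CPM from 4 counts, and the highest was the second day7C mouse. The first day1CL mouse rested on 2 counts. The mean over the treated mice was 2.60 times that of day0RT. This separation is what *Ogdh* was chosen for. Across all 14429 genes tested, 1.43% had all 18 treated mice above or all below the 3 day0RT mice.

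As group means, *Ogdh* had 14.4 CPM ± 4.49 (SD, n = 3) in day0RT and from 28.1 CPM ± 2.73 (SD, n = 3) in day3CL to 47.5 CPM ± 9.50 (SD, n = 3) in day7C. The log2 fold change against day0RT was 1.34 (standard error 0.30) in day1C, 1.29 (0.27) in day3C, 1.70 (0.27) in day7C, 1.48 (0.30) in day1CL, 1.10 (0.27) in day3CL and 1.73 (0.25) in day7CL. All 6 comparisons share the same 3 day0RT mice. Without the third day0RT mouse, the lowest, the changes were smaller, from 0.75 in day3CL to 1.39 in day7CL. Beige nuclei were a larger share of the adipocytes in day7C than in day0RT, as given above. In white adipocyte nuclei alone the log2 fold change was 1.00 in day7C and 0.94 in day3C, while *Ogdh* had 14.7 CPM ± 5.29 (SD, n = 3) in day0RT and 27.4 CPM ± 4.79 (SD, n = 3) in day7C.

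**Figure D1:**
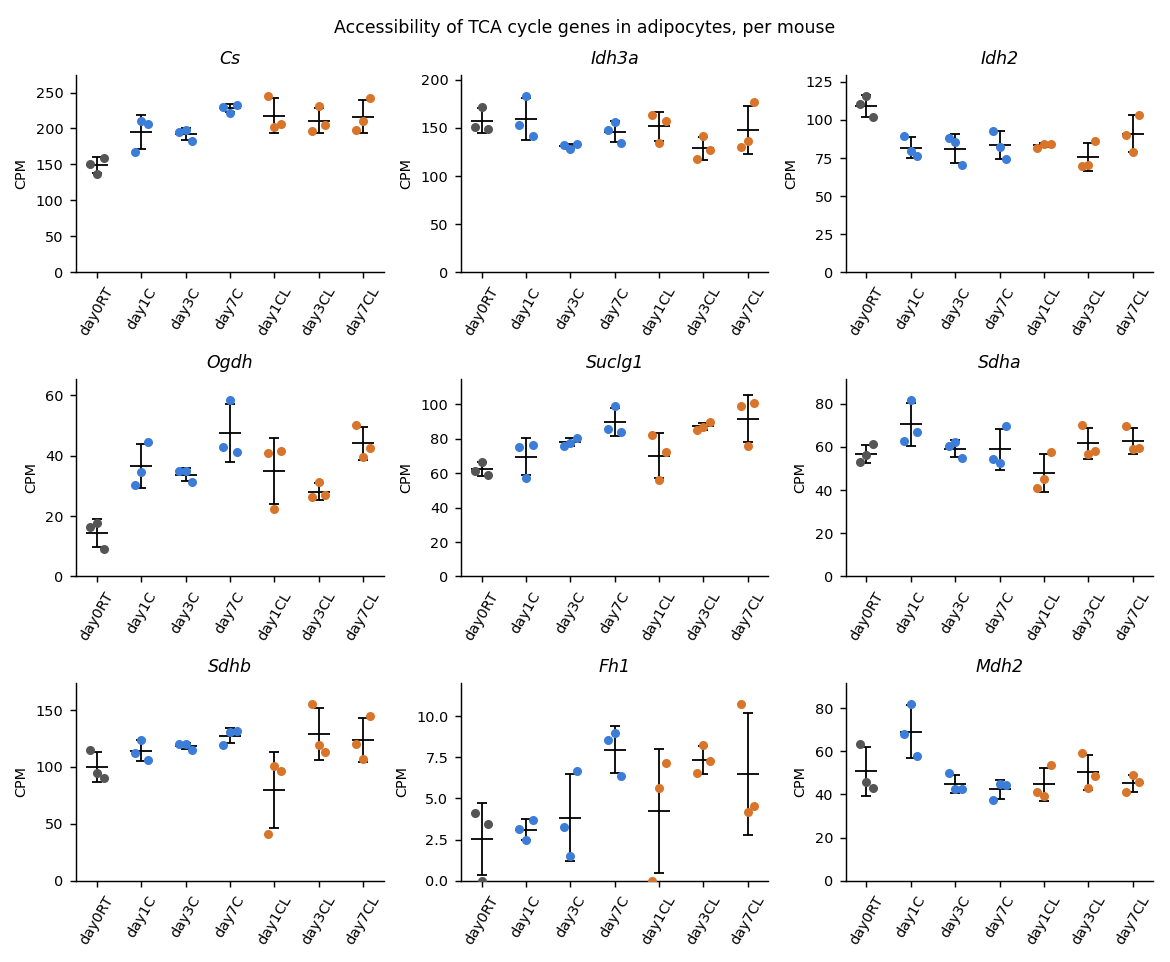
CPM of each member (linear axis from 0) in the adipocytes of every mouse (points), by group, with the mean and SD of 3 mice (line and bars) in grey for day0RT, blue for cold and orange for CL. All treated points lie above the day0RT points for *Ogdh* and *Cs*, and 17 of 18 lie below them for *Idh2*.

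Between the treatments, *Ogdh* did not differ past the threshold, and these tests did not involve the day0RT mice. The log2 fold change of CL against cold was 0.14 on day 1 (95% interval −0.32 to 0.61, adjusted p = 0.865), −0.19 on day 3 (−0.49 to 0.11, adjusted p = 0.687) and 0.04 on day 7 (−0.26 to 0.33, adjusted p = 0.988), by edgeR's quasi-likelihood test with Benjamini-Hochberg adjustment. On day 3 all 3 CL mice were below all 3 cold mice, 31.2 against 31.3 CPM at the closest. Day 7 against day 1 gave 0.36 (−0.03 to 0.76) in the cold and 0.26 (−0.12 to 0.63) with CL, with groups that overlapped. The intervals are wide enough to hold changes of up to 0.76 on the log2 scale.

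Among the 8 other members, *Cs* and *Suclg1* rose and *Idh2* fell in some groups, and the rest did not pass the test against day0RT. *Fh1* had too few counts to be tested. The other 7 were tested in 6 comparisons, and 7 of the 42 tests passed the threshold, 6 higher and 1 lower. By group, 0 of 7 were called in day1C, where 0.34% of all genes were called, 0 of 7 in day3C (1.68% of all genes) and 2 of 7 in day7C (5.08%). With CL, 0 of 7 were called in day1CL (2.61% of all genes), 3 of 7 in day3CL (4.77%) and 2 of 7 in day7CL (7.81%). In day1C, day3C and day1CL, the number with an unadjusted p under 0.05 was 3, 3 and 2, beside 1439, 2072 and 2189 of all 14429 genes. DESeq2 called 3 tests in all 6 comparisons together. The median log2 fold change of these 7 genes lay between −0.02 in day1CL and 0.22 in day1C, beside medians over all genes between −0.01 and 0.00.

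*Cs* (ENSMUSG00000005683, chromosome 10 from 128337734 to 128362479), the enzyme of the entry step, had 151, 137 and 158 CPM in the day0RT mice and 168 to 246 CPM in the 18 treated mice, with a median of 206 CPM. As for *Ogdh*, no treated mouse reached down to the day0RT values. The increase passed edgeR's test in day7C (0.59, standard error 0.12, adjusted p = 0.00116), day3CL (0.52, standard error 0.12, adjusted p = 0.00431) and day7CL (0.49, standard error 0.12, adjusted p = 0.00635). In day1C, day3C and day1CL the values were 0.32, 0.34 and 0.43 and did not pass. The call in day3CL ended without the second day3CL mouse (0.42, adjusted p = 0.0973), and that in day7C ended in white adipocyte nuclei alone (0.43, adjusted p = 0.0967).

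*Suclg1* (ENSMUSG00000052738, chromosome 6 from 73248382 to 73276911), the alpha subunit shared by the GTP- and ATP-forming succinyl-CoA ligases, acts just after *Ogdh*. It had 61.3, 66.7 and 58.9 CPM in day0RT, 85.5, 98.9 and 84.1 CPM in day7C, 85.3, 86.5 and 89.6 CPM in day3CL and 98.7, 75.9 and 100.5 CPM in day7CL. Each of these 3 groups passed the test, with log2 fold changes of 0.52 (adjusted p = 0.0470), 0.52 (adjusted p = 0.0304) and 0.61 (adjusted p = 0.00696). None of them overlapped day0RT, but the share of all genes without overlap was not counted, so this separation only describes the mice. Of all 18 treated mice 16 were above day0RT and 2 below. None of the 3 calls held by DESeq2 (adjusted p from 0.0786 to 0.154) or without the third day0RT mouse (0.104 to 0.241), and that in day7C ended without any 1 of 8 mice. Around the gene start only, none of the 3 held (edgeR adjusted p from 0.470 to 0.853). The day7C call also ended in white adipocyte nuclei alone (0.36, adjusted p = 0.376) and in nuclei with at least 2000 counts (0.51, adjusted p = 0.0887).

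*Idh2* (ENSMUSG00000030541, chromosome 7 from 80094846 to 80115392, minus strand), which makes 2-oxoglutarate and NADPH, went the other way. The day0RT mice had 110, 116 and 102 CPM, and the treated mice had 70.0 to 104 CPM with a median of 83.3 CPM. All but 1 treated mouse, the third day7CL mouse, were below all day0RT mice. The decrease passed the test in day3CL alone, with a log2 fold change of −0.46 (adjusted p = 0.0367). The call did not hold by DESeq2 (adjusted p = 0.148) or without any 1 of the day0RT mice (adjusted p from 0.0840 to 0.122) or the second day3CL mouse (0.262), nor with the replicate number as a block (0.0624). In the other groups the log2 fold change was −0.24 to −0.37.

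*Idh3a*, *Sdha*, *Sdhb* and *Mdh2* did not pass the test in any of the 6 comparisons. *Idh3a*, the catalytic subunit of the NAD-linked isocitrate dehydrogenase, had log2 fold changes from −0.24 to 0.02. *Sdha* and *Sdhb*, the flavoprotein and iron-sulfur subunits of succinate dehydrogenase, ranged from −0.06 to 0.22 and from −0.06 to 0.36, and *Mdh2* from −0.22 to 0.44. *Fh1* had 4.09, 0 and 3.47 CPM in day0RT and 0 to 10.7 CPM in the treated mice, from 141 counts in all 21 libraries. Of its treated mice, 12 of 18 were above all day0RT mice.

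**Figure D2:**
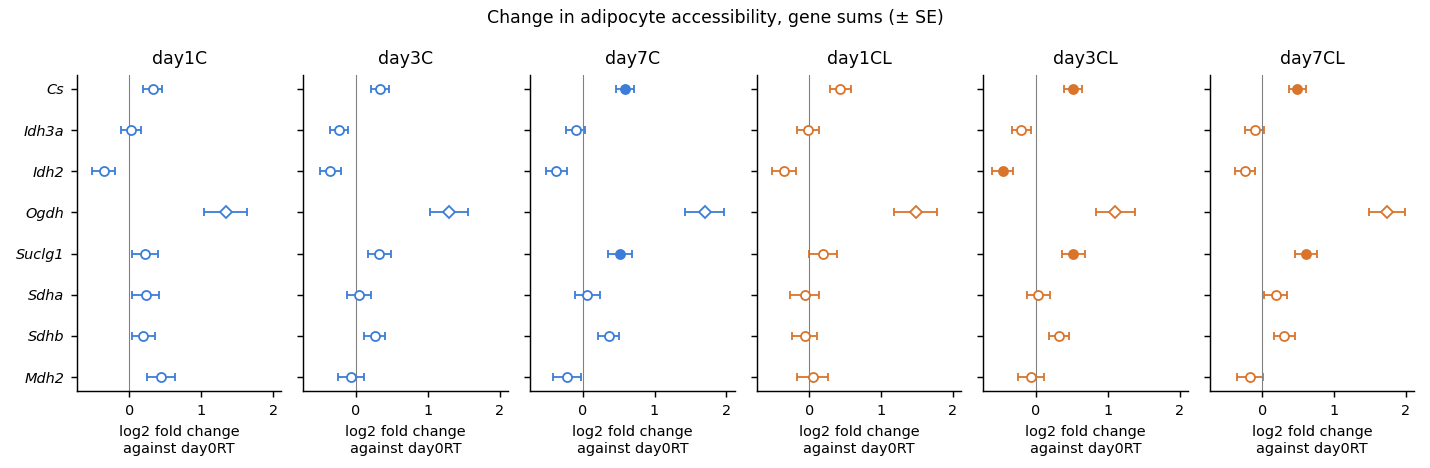
Log2 fold change against day0RT (horizontal axis, ± standard error) of 8 members in adipocytes, with 1 panel per treated group, blue for cold and orange for CL. Filled circles passed the threshold (adjusted p under 0.05, edgeR), open circles did not, and diamonds mark *Ogdh*, which was not tested. *Ogdh* lies between 1.10 and 1.73 in every panel and the other genes between −0.46 and 0.61.

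No member passed the test between CL and cold on the same day. Of 8 members tested, 0 were called on day 1, 0 on day 3 and 0 on day 7 by edgeR, against 0.922%, 1.46% and 0.111% of all genes. At an unadjusted p under 0.05 stood 1, 0 and 0 members, beside 1843, 1741 and 1231 of all 14429 genes. DESeq2 also called 0. The CL and cold mice did not overlap for *Sdha*, *Sdhb* and *Mdh2* on day 1, all lower with CL, or for *Ogdh* (lower) and *Suclg1* (higher) on day 3. The first day1CL mouse rested on 2 counts for each of *Sdha*, *Sdhb* and *Mdh2*. The share of all genes without overlap was not counted, so these separations only describe the mice. The lowest and highest log2 fold changes of the members other than *Ogdh* were −0.39 (*Mdh2*, day 1) and 0.20 (*Suclg1*, day 3). Between day 7 and day 1 of CL, 0 of 8 members were called (1.16% of all genes). There 2 members had an unadjusted p under 0.05, beside 1748 of all 14429 genes. Between day 7 and day 1 of the cold, 1 of 8 members was called where 2.25% of all genes were. The call was *Mdh2*, which had 67.8, 81.8 and 57.6 CPM in day1C and 37.4, 44.9 and 44.4 CPM in day7C. It fell by 0.66 on the log2 scale (standard error 0.17, adjusted p = 0.0219). The 2 groups did not overlap, which again only describes the mice. This call was lost without the first or second day1C mouse or the first or the third day7C mouse (adjusted p from 0.0517 to 0.151). The only *Mdh2* peak also counts for *Styxl1*, so the call cannot be assigned to either gene.

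In the B cells of the same mice, the most numerous annotated type with 11967 nuclei, no member changed past the threshold. *Ogdh* and *Fh1* had too few counts there (96 and 18 in all) to be tested. Of the 7 others, 0 were called in day1C (0.574% of all genes), day3C (0%), day7C (0.0174%), day1CL (2.68%), day3CL (0%) and day7CL (1.36%). Across these 42 tests 3 had an unadjusted p under 0.05, beside 746 to 1899 of all 11502 genes per comparison. DESeq2 called 0, and the log2 fold changes of the members ranged from −0.33 to 0.37. *Ogdh* had 4.64 CPM ± 2.44 (SD, n = 3) in day0RT B cells and 2.18 to 14.8 CPM as means of the treated groups. The highest library value, 22.9 CPM, was that of the third day1CL mouse, whose B cell library held only 43731 counts from 66 nuclei. The difference between adipocytes and B cells was not tested.

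The other enzymes of the cycle and the genes that feed or drain it were counted as 2 lists. Of the 8 further cycle genes given here, all tested in adipocytes, *Suclg2* rose in day7C (0.46) and *Sucla2* in day7CL (0.45), and 0 fell against day0RT. Of all genes, 5.08% were called in day7C and 7.81% in day7CL. Of 31 alternative runs (other settings or 1 mouse left out), the *Suclg2* call ended in 8 and the *Sucla2* call in 6. *Suclg2* and *Sucla2* encode the beta subunits that pair with the *Suclg1* product. *Idh3b*, *Idh3g*, *Dlst*, *Dld*, *Sdhc* and *Sdhd* were not called in these comparisons. Of 16 genes that feed or drain the cycle or act beside it, 14 were tested and 10 of 84 tests passed, 8 higher and 2 lower, beside 0.34% to 7.81% of all genes called in these comparisons. All 8 increases were in *Acly*, which splits cytosolic citrate into acetyl-CoA (0.79 in day3C, 1.11 in day7C, 1.49 in day3CL, 0.93 in day7CL), and *Me1*, the cytosolic malic enzyme (0.62 in day1C, 0.83 in day7C, 0.64 in day1CL, 0.74 in day3CL). The study itself named *Acly* and *Me1* from these mice, so they are not independent evidence of a direction. *Slc25a10*, the mitochondrial dicarboxylate carrier, had log2 fold changes of −0.56 in day7C and −0.53 in day7CL, both called. In B cells *Suclg2* rose in day1CL (0.70, adjusted p = 0.0228), and no other gene of these lists was called there.

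Within *Ogdh*, 9 of the 10 peaks had a higher pooled level after treatment and 1 did not. Counts per peak were low, 0 to 5 over the 3 day0RT mice, so ratios of pooled CPM (counts over all peak counts of the pooled adipocytes) are given with 95% intervals that cover counting error only. The peak at chr11:6355143-6355485 (+63.7 kb) lies near the 3′ end, and 155 bases of it are coding and the rest intronic. It had 1, 1 and 0 counts in the day0RT mice and 1 to 23 counts in the 18 treated mice, a pooled ratio of 5.05 (1.37 to 42.1). It was the only *Ogdh* peak with enough counts for the fit over peaks, where its log2 fold change ran from 1.02 (standard error 0.56) in day3CL to 1.93 (standard error 0.61) in day1C.

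The neighbouring peak at chr11:6354583-6354937 (+63.1 kb) had the most adipocyte counts, with 1, 1 and 2 in day0RT and 159 over the treated mice (ratio 3.04, interval 1.16 to 11.3). At chr11:6316610-6316946 (+25.1 kb, 91 coding bases) 0, 1 and 2 counts in day0RT stood against 124 (3.16, interval 1.06 to 15.5). These 3 peaks overlap a coding exon. The peak at +41.2 kb had 1 count in day0RT and 68 after treatment (5.20, interval 0.903 to 208). The peak at chr11:6324319-6324659 had 0 in day0RT and 45 after treatment (lower bound of the ratio 0.896). The intronic peak at chr11:6330324-6330532 (+38.8 kb) had 3, 0 and 2 counts in day0RT and 64 after treatment, a ratio of 0.979 (0.399 to 3.12). For the other 4 intronic peaks, the ratio was 2.07 to 3.21. Their intervals had lower bounds of 0.450 to 0.746 and upper bounds of 17.5 to 130, so each included a ratio of 1. These intervals leave out the spread between mice, and the contrast is the one *Ogdh* was selected on, so they rank no peak.

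**Figure D3:**
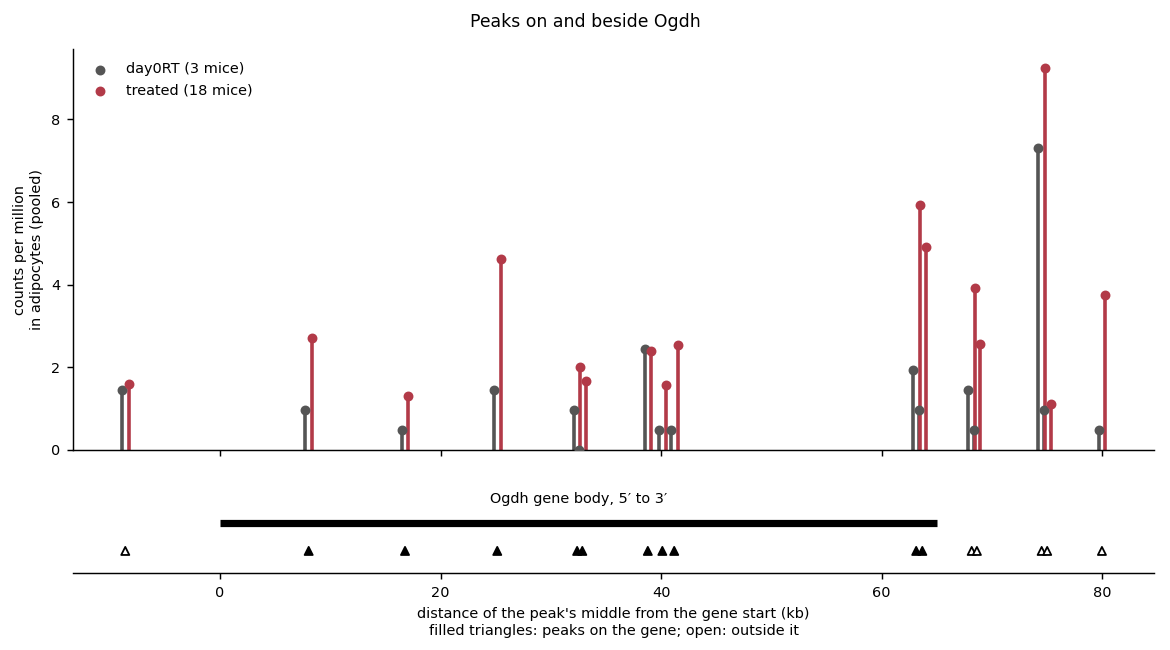
Pooled adipocyte CPM of each peak on and beside *Ogdh* for the 3 day0RT mice (grey) and the 18 treated mice (red), against the distance of the peak's middle from the gene start in kb, pairs drawn side by side, with the gene body as a bar below and filled triangles for peaks on the gene and open ones for peaks outside it. The red lines are higher at 9 of the 10 peaks on the gene, and no peak stands at the gene start.

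Among the annotated cell types, *Ogdh* was highest in beige adipocytes, and the leading peak differed between cell types. The means over mice were 64.0 CPM ± 35.4 (SD, n = 19) in beige adipocytes, 47.4 ± 30.0 (n = 21) in macrophages, 46.1 ± 48.6 (n = 10) in the VSMC cluster, 33.9 ± 27.7 (n = 17) in dendritic cells, 28.4 ± 12.3 (n = 20) in CD8 T cells and 27.6 ± 8.75 (n = 21) in white adipocytes. Lower levels were found in other T cells (18.7 ± 19.6), CD4 T cells (18.0 ± 11.6), vascular endothelial cells (15.7 ± 21.9), the first progenitor cluster (APC1, 9.52 ± 12.1), B cells (7.50 ± 5.46) and APC2 (5.03 ± 10.9). Each neighbouring pair in this order differed by less than the larger of its SDs, and 10 of 20 APC1 libraries, 15 of 19 APC2 libraries and 8 of 15 endothelial libraries had no *Ogdh* count. With counts pooled over all mice, 3 types instead of 5 stood above white adipocytes (beige adipocytes, macrophages and the VSMC cluster), and CD8 T cells and white adipocytes were level at 29.6 pooled CPM. The clusters were made from these counts, so the levels are a description.

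In white and beige adipocytes the 3 peaks that overlap coding exons led. The +63.1 kb peak had 10.1 pooled CPM in beige and 4.80 in white adipocytes against 0.506 in macrophages, the +63.7 kb peak 9.22 and 3.78 against 0.506, and the +25.1 kb peak 7.24 and 3.86 against 1.01. Macrophages instead had 51.5% of their 66 *Ogdh* counts at chr11:6299498-6299866 (+8.0 kb, 17.2 CPM), where white adipocytes had 2.34 CPM. CD8 and CD4 T cells had 55.5% and 53.4% of theirs at the +41.2 kb peak (14.4 and 8.70 CPM). Dendritic cells had 34.4% of 32 counts at chr11:6331638-6331851 (8.35 CPM). The summed macrophage markers in the adipocyte libraries were 119 to 133 CPM in day0RT and 108 to 164 CPM in the treated mice, and the T cell markers 57.8 to 100.2 and 33.1 to 102 CPM. Their part in the adipocyte values was not tested.

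**Figure D4:**
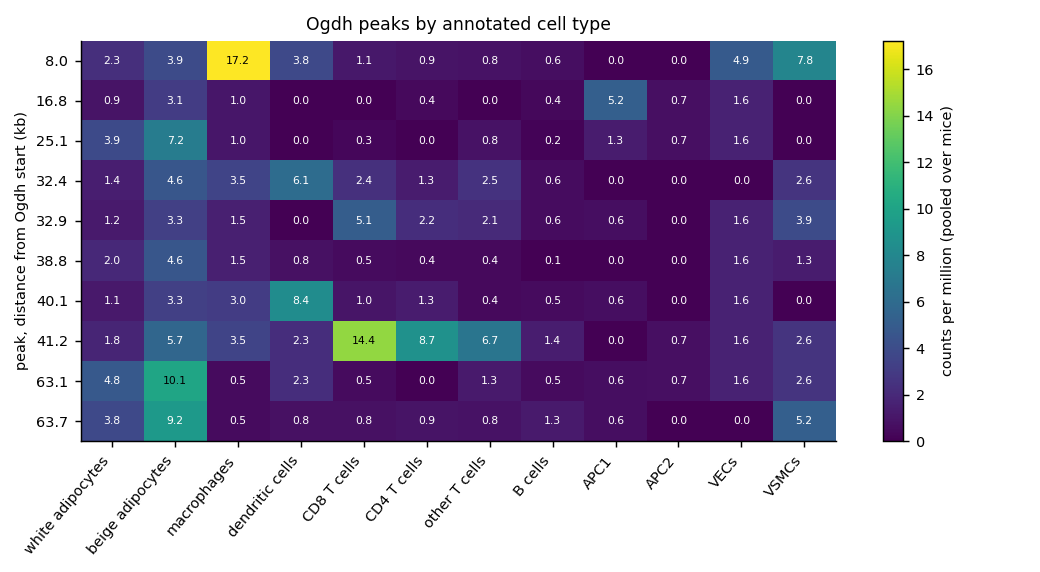
Pooled CPM (colour and number, counts over all peak counts of the cell type) of the 10 *Ogdh* peaks, by distance from the gene start in kb (rows), in the 12 annotated cell types (columns). The bottom rows (+63.1 and +63.7 kb) are led by beige adipocytes, the top row by macrophages (17.2 CPM) and the +41.2 kb row by CD8 T cells (14.4 CPM).

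Within the same mouse, *Ogdh* was higher in beige than in white adipocytes in 17 of 19 mice, with means of 64.0 CPM ± 35.4 and 27.6 CPM ± 9.20 (SD, n = 19), a ratio of 2.32. *Fh1* (ratio 1.67, 12 of 19 mice), *Suclg1* (1.52, 17 mice), *Cs* (1.48, 18 mice) and *Idh3a* (1.39, 17 mice) followed, then *Sdha* (1.28, 12 mice), *Sdhb* (1.25, 16 mice), *Idh2* (1.21, 14 mice) and *Mdh2* (1.11, 11 mice). Across the 12 cell types, 4 of the 9 members (*Ogdh*, *Cs*, *Idh3a* and *Sdha*) had their highest mean in beige adipocytes. *Cs* (258 CPM ± 102, n = 10) and *Fh1* (19.0 CPM ± 25.1, n = 10) were also high in the VSMC cluster with the skeletal muscle markers. *Sdhb* was highest in macrophages (160 CPM ± 38.7, n = 21), *Mdh2* and *Idh2* in CD4 T cells (87.4 CPM ± 30.3 and 106 CPM ± 21.3, n = 20).

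Per kilobase of peak, the mean adipocyte level was 9.84 CPM for *Ogdh* and 7.42 CPM for *Fh1*, the 2 genes with no peak at the start, and 16.2 CPM (*Suclg1*) to 42.3 CPM (*Mdh2*) for the other 7. Of the 6 members with a start peak and others, *Cs*, *Idh3a*, *Suclg1*, *Sdha* and *Sdhb* had lower pooled CPM in white and beige adipocytes than in B cells at the start peak and higher at the other peaks together. *Idh2* was higher in adipocytes at both (start peak 42.8 in white, 51.1 in beige and 40.0 in B cells). The start peak of *Cs* had 47.1 pooled CPM in white nuclei, 59.2 in beige nuclei and 85.0 in those of B cells, while its 11 other peaks together had 144, 215 and 51.1. For *Idh3a*, the start peak had 41.6, 55.6 and 60.4 CPM and the other 5 peaks 90.1, 131 and 4.45 CPM. The *Idh3a* peak with the most adipocyte counts (1125), over the 3′ end of the gene, also counts for *Acsbg1*, and the *Sdha* start peak for *Ccdc127*. The only *Mdh2* peak, over its start and shared with *Styxl1*, had 47.9, 47.5 and 84.0 CPM. These are pooled counts of clusters made from the same matrix, with no test. How many of all genes share the pattern of start and other peaks was not counted, so it is not shown to be particular to the cycle. CPM is a share of a library's counts, not of its nuclei. In this paragraph it is a share of all counts on genes. The single-peak CPM values given elsewhere are shares of all peak counts and do not compare directly with these. At the *Cs* start peak, 899 of 5935 white adipocyte nuclei and 1183 of 11967 B cell nuclei held a count.

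Between the groups, the calls fell outside the start peaks as well. Of the 50 peaks of the 8 other members, 24 passed the low-count filter in adipocytes and were tested against day0RT, 7 of them over a gene start. None of the 42 tests of start peaks passed the threshold by edgeR (2 at an unadjusted p under 0.05), and 8 of the 102 tests of the other 17 peaks did, 5 higher and 3 lower, in 4 peaks (30 at an unadjusted p under 0.05). Per comparison, 4668 to 9224 of all 47835 peaks had an unadjusted p under 0.05. The median log2 fold change was 0.02 for start peaks and 0.17 for the others, beside −0.01 over all peaks, and the difference between the 2 kinds of peak was not tested. By group, 0 of 24 peaks were called in day1C (0.213% of all peaks), 1 in day3C (1.28%), 3 in day7C (3.13%), 1 in day1CL (2.06%), 3 in day3CL (3.46%) and 0 in day7CL (4.19%). DESeq2 called 0 member peaks, though it gave no adjusted p for the 2 *Cs* peaks called in day3CL, and 0 were called without the third day0RT mouse. The number was 4 without the second day0RT mouse and 5 without the second day7C mouse.

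The increases were all at *Cs*. The peak at chr10:128336771-128337119, with its middle at −789 bases from the start, had 8 counts in day0RT and 52 in day7C, 4.81 CPM ± 3.10 and 14.6 CPM ± 2.96 (SD, n = 3), and it rose in day3CL (1.65, standard error 0.38, adjusted p = 0.00236) and day7C (1.55, standard error 0.40, adjusted p = 0.0125). An intronic peak with its middle 914 bases after the start rose in the same groups (1.43, adjusted p = 0.0319, and 1.57, adjusted p = 0.0248). Between these lies the start peak, chr10:128337251-128338318, with 38.6 CPM ± 5.78 in day0RT and 41.1 CPM ± 2.46 in day7C (SD, n = 3) and log2 fold changes of −0.03 in day3CL and 0.08 in day7C. The last called *Cs* peak, chr10:128362459-128363066, over the 3′ end of the gene, rose in day1CL (1.32, adjusted p = 0.0112), and this call ended without the third day1CL mouse (adjusted p = 0.403). Of the alternative runs, the call of the peak at −789 bases ended in 2 of 28 in day3CL and 4 of 30 in day7C. That of the peak at 914 bases ended in 5 of 27 in day3CL and 7 of 29 in day7C. The peaks at −789 and 914 bases had only 8 and 6 counts over the 3 day0RT mice. They therefore passed the minimum count of 10 through treated mice, a choice that was not free of the direction tested. With no filter on low counts, the calls at 914 bases ended (edgeR adjusted p = 0.0842 in day3CL and 0.0706 in day7C). Those at −789 bases held. The decreases were all at an intronic *Idh2* peak, chr7:80105500-80106335, which had 21.8 CPM ± 4.95 in day0RT, 10.3 ± 1.19 in day3C, 10.5 ± 2.98 in day7C and 8.99 ± 1.35 in day3CL (SD, n = 3 each). Its log2 fold changes were −0.94, −1.05 and −1.27 in that order, with adjusted p = 0.0441, 0.0242 and 0.00151 by edgeR. With the replicate number as a block, the call in day3C ended (adjusted p = 0.0833). Of 30 alternative runs, the *Idh2* peak call ended in 13 in day3C, 7 in day7C and 2 in day3CL. The sequences of the *Cs* peak upstream of the start and of the *Idh2* peak are printed here because each was called in more than 1 group, and they hold no coding bases.
Cs upstream peak, chr10:128336796-128337095, + strand: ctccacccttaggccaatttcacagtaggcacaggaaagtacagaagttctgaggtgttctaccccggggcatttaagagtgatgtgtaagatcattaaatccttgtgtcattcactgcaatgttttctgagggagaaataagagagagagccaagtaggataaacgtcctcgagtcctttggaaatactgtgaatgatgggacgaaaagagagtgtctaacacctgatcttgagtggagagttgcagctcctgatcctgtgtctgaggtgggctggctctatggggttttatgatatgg
Idh2 intronic peak, chr7:80105768-80106067, - strand: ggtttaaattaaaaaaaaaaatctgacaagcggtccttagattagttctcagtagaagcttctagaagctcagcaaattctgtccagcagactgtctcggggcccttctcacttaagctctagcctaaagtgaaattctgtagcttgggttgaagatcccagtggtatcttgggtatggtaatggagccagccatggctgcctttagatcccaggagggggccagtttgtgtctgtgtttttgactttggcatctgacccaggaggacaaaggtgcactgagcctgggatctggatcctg

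**Figure D5:**
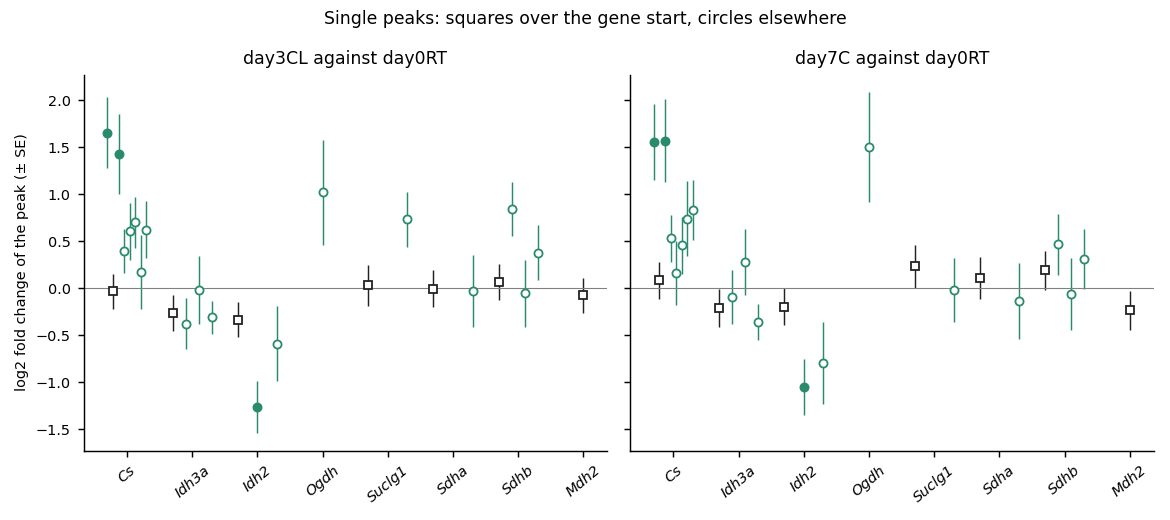
Log2 fold change (± standard error) of every tested member peak against day0RT in day3CL (left) and day7C (right), squares for peaks over the gene start and circles for the others, filled where the adjusted p was under 0.05 (edgeR). The squares lie between −0.34 and 0.23, and the filled circles are 2 *Cs* peaks between 1.43 and 1.65 and 1 *Idh2* peak at −1.27 and −1.05. The *Ogdh* circle was not tested.

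Between CL and cold, 1 of 24 member peaks was called on day 3, where 1.79% of all peaks were called, and none on day 1 (0.458% of all peaks) or day 7 (0.023%). On day 1 and on day 7, 2 member peaks had an unadjusted p under 0.05, beside 5712 and 3058 of all 47835 peaks. DESeq2 called 0 on each day. The peak, chr6:73259899-73260746 inside *Suclg1*, had 17.6 CPM ± 5.34 in day3CL and 10.3 CPM ± 0.587 in day3C (SD, n = 3 each). The difference was 0.79 on the log2 scale, with a standard error of 0.21 (edgeR, adjusted p = 0.0184). The call ended with the replicate number as a block (adjusted p = 0.0676) and without the first day3C mouse (adjusted p = 0.215) or the second or the third day3CL mouse (0.174 and 0.234). The tested *Ogdh* peak gave −0.35, −0.28 and −0.06 on days 1, 3 and 7, with adjusted p from 0.833 to 0.992.

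Short motifs were counted on both strands in the peaks. None of the 10 *Ogdh* peaks held TCAAGGTCA (the site of the ERR nuclear receptors, which regulate many mitochondrial genes), CACGTG (E-box), TGACGTCA (the cAMP response element, CRE), CGCATGCG (NRF1) or CCGGAAGT (ETS), and 1 held CCAAT, which 38.9% of all peaks of like length hold. These strings occur in 0.869%, 5.98%, 0.417%, 0.164% and 0.536% of all peaks of 200 to 697 bases. The ERR string was in 2 of the 60 member peaks, the start peaks of *Sdhb* and *Idh3a*, against 1.13% of all peaks, and the CRE in the start peaks of *Sdhb* and *Mdh2* (0.747% of all peaks). The E-box was in 3 member peaks (8.46% of all peaks), the NRF1 string in 1 (0.499%), the ETS string in 1 (1.32%) and CCAAT in 19 (45.0%). This search covered peaks only, and no *Ogdh* peak lies at the gene start. Among promoter windows of 300 bases, *Ogdh* had several, some of them overlapping, and all outside its peaks. Of these, chr11:6291347-6291646 held the CRE. Another, chr11:6292308-6292607, held the E-box and the NRF1 string. Of all 32851 promoters, 1.79% held the CRE, 7.15% the E-box and 1.87% the NRF1 string. These shares are per window, so they understate how often a gene with several windows holds a match. A match is a description and not a binding site. The first 3 sites printed are the ERR strings and the last 2 the CREs, with the string in capitals.
Sdhb, chr4:140961718-140961746, + strand: cagggagaggTCAAGGTCAtaggatgagc
Idh3a, chr9:54586721-54586749, + strand: ggggacggcgTCAAGGTCAaggcggccag
Idh3a, chr9:54587251-54587279, + strand: acaaatttgcTCAAGGTCAtacaggaggt
Sdhb, chr4:140961378-140961405, + strand: ggggtggggcTGACGTCAggagccaaaa
Mdh2, chr5:135778512-135778539, + strand: gagagaatcgTGACGTCAggcctcgctc

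Of 2702 genes with at least 100 counts per adipocyte library on average, those whose 7 group means ran most like *Ogdh* were *Opcml*, *Tmem268*, *A830018L16Rik*, *Aig1* and *Spire1*. The root mean square difference of the centred log2 group means was 0.24, 0.25, 0.26, 0.27 and 0.27, against a median of 0.53 over all genes compared. None of these is an enzyme of the cycle. The cut of 100 counts left out *Suclg1* (88.8 counts per library), *Idh2* (91.7), *Sdha* (66.0), *Mdh2* (51.7) and *Fh1* (6.71), so their absence was fixed in advance. *Ogdh* itself averaged 38.9 counts per library.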

How the data were processed

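Single-nucleus ATAC-seq of iWAT from 21 mice was deposited as 1 matrix with metadata for each nucleus. Per the labels and the methods of the study, the authors aligned reads to mm10 with Bowtie2, removed duplicates, called peaks with MACS2 per cluster of nuclei and merged them, removed doublets with Scrublet and annotated the cell types. The deposited counts are binary and not normalised. The sequencing lanes pool mice, so mouse, group and cell type were taken from the metadata.

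Counts were summed per mouse and cell type (at least 10 nuclei), over peaks on the gene body plus 2000 bases upstream (GENCODE vM21). Peaks were read with a start counted from 0, and 3.43% of the peaks count for more than 1 gene. Among the member peaks these were the only *Mdh2* peak (with *Styxl1*), the *Sdha* start peak (*Ccdc127*), an *Idh3a* peak (*Acsbg1*) and an *Fh1* peak (*Kmo*). Genes and peaks passing a minimum count of 10 were fitted across all 7 groups with edgeR 4.0.16 (TMM, quasi-likelihood test, Benjamini-Hochberg adjusted p under 0.05) in R 4.3.3, and DESeq2 1.42.0 was an alternative, beside other normalisations, filters, nuclei, windows, a replicate block and leaving out each mouse. Replicates are separate mice. The fits were tested on simulated data. Depth was 48868 to 3354348 counts per adipocyte library. Intervals of pooled ratios of single peaks cover counting error only. Those of log2 fold changes come from standard errors derived from the edgeR test. Each is the absolute log2 fold change over the square root of the F statistic, which takes in the spread between mice. The fold changes were computed with a prior count of 2, which makes those of low-count features smaller in size. The standard errors and intervals derived from them become narrower in the same proportion.

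The members and lists were chosen with earlier results of these data known. Named were all members, the *Ogdh* peak that passed the filter, start peaks and called peaks of the others, the called genes of 2 lists, and the 5 genes (at least 100 counts per library on average) whose centred log2 group means were closest to *Ogdh*. The remaining *Ogdh* peaks were named after their values were seen. Results for 1 listed gene and the sequences of 2 peaks are not reported here.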

Additional observations from a re-analysis of the deposited data

Results flagged for a closer look

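Of the member genes, *Mdh2* differed between time points of the same treatment: it fell by 0.66 on the log2 scale (standard error 0.17, edgeR adjusted p = 0.0219) from day1C to day7C, with means of 69.1 and 42.3 CPM. The only *Mdh2* peak also counts for *Styxl1*, so this change cannot be assigned to either gene. A peak inside *Suclg1*, chr6:73259899-73260746, was higher in day3CL than in day3C by 0.79 (standard error 0.21, adjusted p = 0.0184).

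Genes beside the members also differed between treatments or time points. *Acly* was higher in day3CL than in day3C by 0.70 (standard error 0.14, adjusted p = 0.00107), at 276 against 160 CPM. *Me3*, a mitochondrial malic enzyme, was lower in day3CL than in day3C, with a log2 difference of −0.53 (standard error 0.12, adjusted p = 0.00763), at 55.4 against 86.4 CPM. *Me1* was lower in day7CL than in day7C, with a difference of −0.50 (standard error 0.12, adjusted p = 0.0462), at 246 against 359 CPM. Among all genes, 1.46% were called between day3CL and day3C and 0.111% between day7CL and day7C. Of 31 alternative runs, the call ended in 2 for *Acly*, 6 for *Me3* and 9 for *Me1*.

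Between day7C and day1C, *Suclg2* was higher by 0.51 (standard error 0.13, adjusted p = 0.0225), at 177 against 121 CPM. *Slc25a10* was lower, with a difference of −0.43 (standard error 0.12, adjusted p = 0.0390), at 150 against 200 CPM. *Idh3g*, a regulatory subunit of the NAD-linked isocitrate dehydrogenase, was lower with a difference of −0.71 (standard error 0.18, adjusted p = 0.0188), at 35.9 against 61.1 CPM. Each of these is a test by edgeR of the difference between 2 treated groups of 3 mice. Among all genes, 2.25% were called between day7C and day1C. Of the alternative runs, the call ended in 7 of 31 for *Suclg2*, 9 of 31 for *Slc25a10* and 7 of 30 for *Idh3g*.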

How the results depend on the processing

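Of the 7 member calls against day0RT, DESeq2 made 3 and a window of 2000 bases around the gene start 2, and leaving out 1 mouse gave 3 to 7 (4 without the first or second day0RT mouse or the second day3CL mouse, 3 without the third day0RT mouse). The call of day 7 against day 1 became 0 under DESeq2 (which gave no adjusted p for *Mdh2*), in nuclei with at least 2000 counts, in white nuclei only and around the start only, and was 0 to 1 with 1 mouse left out. The 8 peak calls became 0 under DESeq2, 3 with no filter on low counts and 3 in white nuclei only, and 0 to 9 with 1 mouse left out. The single peak call of CL against cold became 0 under DESeq2, with no filter, with the replicate number as a block and in white nuclei only, and was 0 to 1 with 1 mouse left out. The member genes gave 0 calls for CL against cold and for B cells under every alternative run.

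For *Ogdh* the log2 fold change in white nuclei only was 0.94 in day3C and 1.00 in day7C. With 1 mouse left out it was 0.99 to 1.52 in day1C, 0.91 to 1.63 in day1CL, 0.94 to 1.45 in day3C, 0.75 to 1.25 in day3CL, 1.35 to 1.85 in day7C and 1.39 to 1.89 in day7CL. The lowest values came without the third day0RT mouse, except in day1CL, where it came without the third day1CL mouse. DESeq2 gave no adjusted p for *Ogdh* against day0RT, and *Ogdh* and *Fh1* have no peak around the start. No fold change of *Ogdh* against day0RT, and none of a called gene or peak, changed sign under the alternatives run. The tests that were not called were not checked for sign. Causes were not tested.

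Mice with the same replicate number did not deviate together (correlation −0.11 to 0.15, median 0.00032 over 63 pairs). The study states that its batches of experiments were run independently, but the sources used here do not tie a number to a batch. The mice were therefore not treated as pairs, although mice that share barcodes have the same number. Whether the replicate numbers follow those batches was not tested. With the replicate number as a block there were 6 member calls against day0RT and 7 peak calls.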

Other observations

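Beside *Ogdh*, 6 peaks that overlap no counted gene window were examined, chosen after their values were seen. At chr11:6371329-6371864, past the 3′ end of *Ogdh*, 1 count in day0RT stood against 101 in the treated mice, a pooled ratio of 7.73 (95% interval 1.36 to 308, counting error only), and 17 of 18 treated mice were above all day0RT mice. The peak at chr11:6359639-6359941 had 3 and 105 counts (ratio 2.68, interval 0.892 to 13.2) and chr11:6360160-6360364 had 1 and 69 (5.28, interval 0.917 to 212). The strongest peak there, chr11:6365789-6366474, had 15 and 248 counts (1.27, interval 0.752 to 2.29), and none of its 6 comparisons with day0RT passed the threshold by edgeR. The remaining peaks had ratios near 1. They were chr11:6282930-6283180, with 3 and 43 counts (1.10, interval 0.351 to 5.53), and chr11:6366535-6366735, with 2 and 30 counts (1.15, interval 0.291 to 9.91).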
